A study of Drosophila melanogaster with 3 samples.

Results

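The Dpr and DIP genes of Drosophila melanogaster were examined as a family: the 32 protein-coding genes whose Ensembl symbol is dpr with a number (21 genes) or DIP- with a Greek letter name (11 genes), out of 13945 protein-coding genes on the 6 chromosome arms 2L, 2R, 3L, 3R, 4 and X. The rule takes genes by symbol and uses no peak, but the family was chosen with earlier results of these data known. Binding of Lpt, a subunit of the Trr complex that methylates histone H3, was profiled by chromatin immunoprecipitation with an anti-GFP antibody and sequencing. The animals came from 1 transgenic strain that stably expresses Lpt with GFP at its C terminus, were collected whole as white prepupae, and were pooled from males and females. All 3 samples are biological replicates of this 1 group, with chromatin sonicated to 200 to 800 bp; their age is recorded as unknown, the sources used here do not give the promoter of the transgene, and a control was not analysed here.

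Dpr proteins (defective proboscis extension response) and DIP proteins (Dpr-interacting proteins) are cell surface proteins of the immunoglobulin superfamily. Each DIP binds a particular set of Dprs, and the pairs are known from neurons and their synaptic partners, where they mark cell identity and help to choose partners, for example in the visual system, the mushroom body and between motor neurons and muscles. Lpt and Trr are known from enhancers, where the complex places a single methyl group on a lysine of the histone tail, and from the ecdysone response that opens metamorphosis. In whole animals, binding in few cells and weak binding in many cells cannot be told apart.

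The values were taken from peak lists. Each replicate had an input list of peaks and background regions, as had the pooled replicates (30000 entries in replicates 1 and 2 and in the pool, 27893 in replicate 3). An irreproducible discovery rate (IDR) procedure by the authors kept 6110 peaks, which are exactly the 6110 entries of highest signal in the pooled list. A peak was placed by its summit, its base of strongest signal. Signal is the authors' enrichment value of a peak within its own list, so it ranks peaks in a list, and a mean ± SD of signal over replicates includes the differences in scale between lists. The number of reads is unknown.

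The Dpr and DIP genes were almost free of Lpt-GFP peaks. Of the 32 genes, 1 held an IDR summit (3.12%), while 13.3% of all coding genes held one. That gene was DIP-alpha, with 2 summits, and the 21 Dpr genes and the other 10 DIP genes held none. Near start sites the count was also low: 2 of 32 (6.25%), dpr14 and dpr20, had an IDR summit within 1000 bp of a transcription start site (TSS), against 19.2% of all coding genes. These 4 summits were the whole IDR signal of the family, so the sequence under each is shown.

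The 50 bp on each side of each of the 4 summits are shown on the strand of the named gene, from the release 6 genome (dm6), with any copy of 7 motifs in capitals (the GAGA factor core GAGAG, the repeat CACACACA, the nuclear receptor element AGGTCA, the Zelda motif CAGGTAG, the DREF element core TATCGATA, and the E-boxes CACGTG and also CAGCTG, all searched on both strands). The first is the stronger summit in DIP-alpha (chrX:3546286-3546386, minus strand), the next the weaker one (chrX:3538890-3538990, minus strand), then the summits by dpr14 (chrX:7908679-7908779, minus strand) and dpr20 (chr3L:857785-857885, minus strand).
DIP-alpha, stronger summit: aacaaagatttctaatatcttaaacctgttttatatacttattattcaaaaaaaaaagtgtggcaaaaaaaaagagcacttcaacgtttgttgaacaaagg
DIP-alpha, weaker summit: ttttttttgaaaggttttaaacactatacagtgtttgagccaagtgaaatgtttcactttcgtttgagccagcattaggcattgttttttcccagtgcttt
dpr14: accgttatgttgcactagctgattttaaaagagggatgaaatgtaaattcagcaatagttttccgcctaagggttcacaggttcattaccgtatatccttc
dpr20: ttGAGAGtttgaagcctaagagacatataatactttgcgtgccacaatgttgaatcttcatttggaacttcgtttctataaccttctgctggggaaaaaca
In these windows, the only motif match was 1 GAGAG near the 5′ end of the dpr20 sequence. Within 100 bp on each side of the summits, GAGAG was in the stronger DIP-alpha window and in the dpr20 window, and 30.6% of all 6110 IDR windows hold it. None of the other 6 motifs was in any of the 4 windows, where shares over all IDR windows were 0.802% (CAGGTAG) to 7.89% (CAGCTG).

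Length makes the near absence of peaks stand out, since these are long genes. Members span 3.74 kb (dpr19) to 379 kb (DIP-lambda), with a median of 32.5 kb against 2.17 kb for all coding genes. Together they cover 1.58 Mb, which is 1.18% of the 6 arms, and held 2 of 6110 IDR summits (0.0327%). That is 0.0127 summits per 10 kb, against 0.456 over the arms. Other coding genes from 20% shorter to 25% longer than a member, taken here as genes of like length, held 2 summits on average, whereas members held 0.0625, a difference of -1.94 summits per gene. Summed over the 32 members, the like-length means come to 64 summits where 2 were found. Their shares with any summit sum to 15.5 genes where 1 was found, and those with a promoter summit to 11.4 genes where 2 were found. Every member was below the mean of its like-length genes, but a gene with 0 summits is below any mean above 0. Among genes of like length, the share without a summit had a median of 46.4% over members. DIP-alpha, with 2 summits, was below its like-length mean of 3.45 and equal to the like-length median of 2. These are descriptions with no test.

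**Figure D1:**
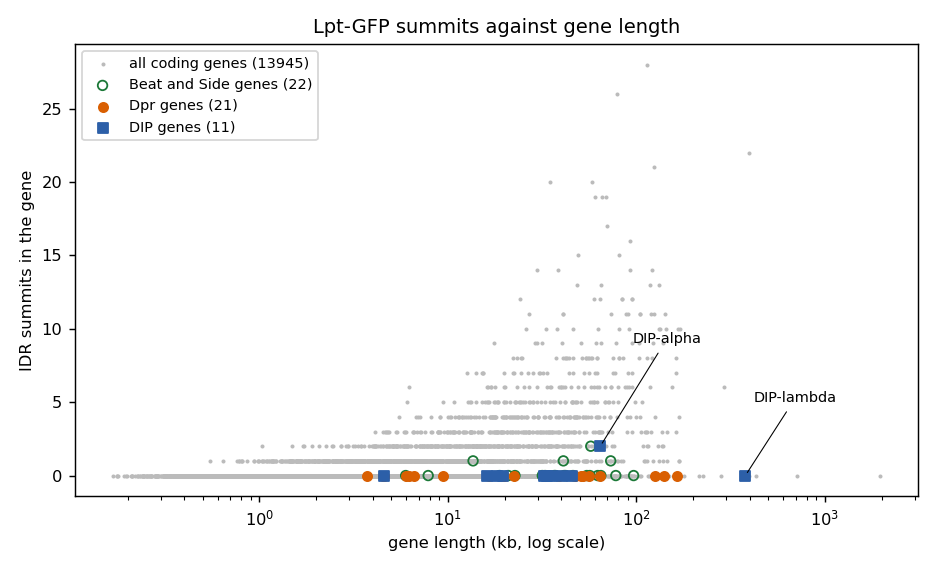
IDR summits in the gene (vertical axis) against gene length in kb (horizontal axis, log scale) for 13945 coding genes (grey), 22 Beat and Side genes (green rings), 21 Dpr genes (orange points) and 11 DIP genes (blue squares). Except for DIP-alpha with 2 summits, members lie on the line of 0 at all lengths up to 379 kb.

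The replicates gave the same picture. Among the 6110 strongest peaks of each replicate list, members held 2, 2 and 3 summits in replicates 1, 2 and 3 (2.33 ± 0.577, SD, n = 3), in 1, 1 and 2 genes. Over all coding genes, 13.4%, 13.8% and 12.9% held one. The difference from genes of like length was -1.90, -1.97 and -1.86 summits per gene (-1.91 ± 0.0543, SD, n = 3), while the like-length mean itself was 1.98 ± 0.0419 (SD, n = 3). Within 1000 bp of a TSS, 2 members had a summit in each replicate. In all, 30 of the 32 members held no summit among the strongest peaks of any replicate, which was true of 83% of all coding genes and, from the like-length shares, would be true of 14.6 members.

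DIP-alpha was the exception. It encodes the partner of Dpr6 and Dpr10, and the gene spans 64.4 kb on the X (chrX:3507245-3571649, minus strand) with 2 annotated TSSs 41 kb apart. Its stronger IDR peak (chrX:3546176-3546451, signal 544, rank 279 of 6110) lay in an intron, 25.3 kb downstream of the upstream TSS. The signal there was 159, 224 and 156 in replicates 1, 2 and 3 (179 ± 38.3, SD, n = 3), at ranks 312, 281 and 313 of their lists. The site thus stood among the strongest in all 3 lists. Its nearest TSS is that of the noncoding gene lncRNA:CR34335 (chrX:3545750-3546110, minus strand), which lies inside the intron, 226 bp from the summit.

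The weaker IDR peak of DIP-alpha (chrX:3538722-3539157, signal 194, rank 2452) lay in another intron, 32.7 kb from the upstream TSS and 8.28 kb upstream of the downstream one. Its signal was 56.4, 90.3 and 37.1 in replicates 1, 2 and 3 (61.3 ± 26.9, SD, n = 3), at ranks 2868, 2236 and 4471. It was more than 1000 bp from every annotated TSS, the nearest at 7.17 kb. The other input-list peaks in the gene were lower: in the pooled list, 13 further summits had signals of 29.1 to 66.8, the best at rank 11810. In replicates 1, 2 and 3 the gene held 12, 11 and 21 input-list summits. Genes of like length (165 genes) had a median of 2 IDR summits, and 86 of them (52.1%) held at least as many as DIP-alpha.

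**Figure D2:**
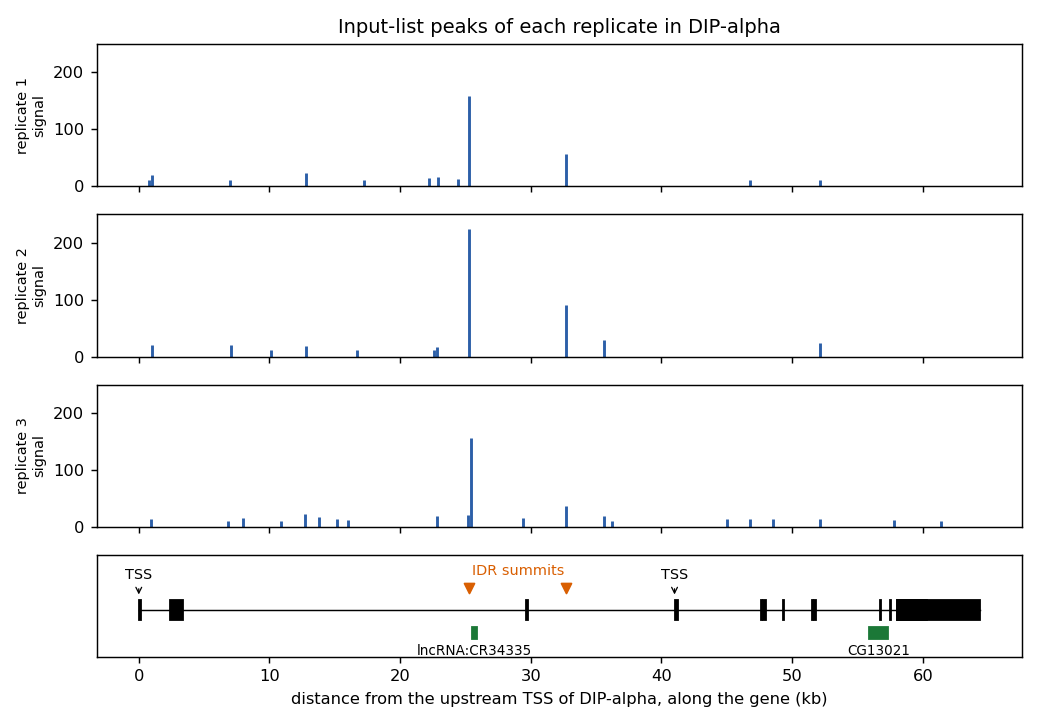
Signal (linear axis, authors' units within each list) of every input-list summit in DIP-alpha for replicates 1, 2 and 3, against distance in kb from the upstream TSS along the gene. The lowest panel shows exons (black), nested genes (green), both TSSs (arrows) and the 2 IDR summits (orange triangles) at 25.3 and 32.7 kb, which are the tallest peaks in each replicate.

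The promoter summits of dpr14 and dpr20 lay upstream of these genes, outside their bodies. The peak by dpr14 (chrX:7908627-7908748, signal 285, rank 1230) had its summit 443 bp upstream of a dpr14 TSS and 202 bp from the TSS of spidey, which encodes a steroid and fatty acid metabolism enzyme and is read in the opposite direction (chrX:7908931-7911885, plus strand). The nearest TSS is therefore that of spidey. Signal was 104, 95.2 and 81.1 in replicates 1, 2 and 3 (93.3 ± 11.4, SD, n = 3).

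The peak by dpr20 (chr3L:857617-858052, signal 167, rank 3151) had its summit 587 bp upstream of the single dpr20 TSS, with no TSS of another gene within 1000 bp. Signal was 45.1, 59.7 and 57.6 in replicates 1, 2 and 3 (54.1 ± 7.88, SD, n = 3). Ranks were 4228, 4600 and 2300, so all 3 replicates held the site within their strongest 6110. Counting only summits whose nearest TSS is that of the member, dpr20 alone remains, and within 500 bp of a TSS dpr14 alone remains. The gene bodies, 4.58 kb for dpr14 and 4.53 kb for dpr20, held no summit in any input list.

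The genes of the known binding partners of DIP-alpha held no IDR summit. dpr6 and dpr10 lie close together on 3L (chr3L:9974651-10139360, plus strand, and chr3L:10147454-10186108, minus strand) and are 165 and 38.7 kb long. Genes of their like length hold 3.97 and 2.02 IDR summits on average. The nearest IDR summit was 67114 bp from dpr6 and 20366 bp from dpr10.

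In the input lists, dpr6 held 10, 3 and 11 summits in replicates 1, 2 and 3 and 8 in the pool (like-length mean 27.7). Its strongest lay in an intron (summit at chr3L:10110520), 9639 bp from the nearest TSS, with signal 20.1, 34.7 and 38.3 in replicates 1, 2 and 3. The rank there was 13550, 10249 and 4245, and 7989 in the pool, so the site counted among the strongest 6110 in replicate 3 alone. For dpr10 the counts were 3, 3 and 4, and 4 in the pool, with a best rank of 16737, in replicate 2.

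Motifs at start sites were searched in windows from 250 bp before each TSS to 50 bp after it. Over the family, 16 of 41 TSS windows (39%) hold GAGAG, in 16 genes, against 33.1% of the 19607 TSS windows of all coding genes.

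Other known pairs were without IDR summits on both sides. DIP-gamma (45.4 kb, 3R) and its partner dpr11 (64.2 kb, 3R), a pair known from photoreceptors and their targets, had like-length means of 2.25 and 3.40. In replicates 1, 2 and 3, DIP-gamma held 4, 0 and 1 input-list summits and dpr11 held 2, 1 and 7. DIP-delta (18.3 kb, 3L) and dpr12 (56.1 kb, 2R), a pair of the mushroom body, had like-length means of 1.23 and 3.17. DIP-delta held 0, 0 and 1 input-list summits and dpr12 held 3, 0 and 4. The founder dpr1 (52 kb, 2R), named for a defect in the taste response to salt, held 3, 3 and 5, against a pooled like-length mean of 14.1 and a pooled count of 3. The best pooled rank of any of these 5 genes was 13525, in dpr1. dpr12 lies in the first 6 Mb of 2R, which hold no IDR summit, 138768 bp from the nearest one.

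Among the longest genes, 4 members exceed 100 kb: DIP-lambda (379 kb), dpr6 (165 kb), dpr8 (140 kb) and dpr21 (125 kb). None held an IDR summit, which was true of 29 of the 83 coding genes of at least 100 kb. By length, they stand at places 5, 11, 16 and 24 among the 12085 coding genes without one. DIP-lambda and dpr21 lie near the centromere of 2R, where the first IDR summit of the arm is 6 Mb from its start, and the nearest IDR summits were 5293751 and 2808588 bp away. DIP-lambda has 3 genes of like length, and 66.7% of these held no IDR summit. Its mean of 7.33 thus comes from the gene kirre alone (394 kb, 22 summits), and is part of the 64 summed over members. The share of soft-masked (repeat) bases was 32.2% in DIP-lambda and 27.1% in dpr21, against 36.1% and 22.3% in their like-length genes. dpr8, on the X, held 3, 2 and 5 input-list summits where the pooled like-length mean was 30.1.

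The shortfall was deeper among the stronger peaks than among the weakest, without an even trend. Before the threshold, the pooled list held 59 summits in 22 members, against 347 from genes of like length, which is 17%. The share of all coding genes with such a summit was 30.7%, and the like-length shares sum to 24.6 genes, so the number of members with any entry came closer to its like-length value than the number of summits did. The 3000 strongest entries of the pooled list held 2 member summits against 31.8 (6.29%), and the weakest 3000 held 17 against 35.9 (47.4%). Between them, in steps of 3000 down the list, the share of the like-length sum was 0%, 3.22%, 2.85%, 13.9%, 20.9%, 7.88%, 26.9% and 35.3%. The lowest shares were thus in the steps after the first, and the share fell back once further down. Of the 347 from genes of like length, 46 are the mean for DIP-lambda, which comes from kirre alone (138 pooled summits). DIP-alpha supplied 15 of the 59 in members. The other 31 genes held 44, against 329. Their best pooled rank was 7989, in dpr6, and no entry of these genes passed the IDR threshold.

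**Figure D3:**
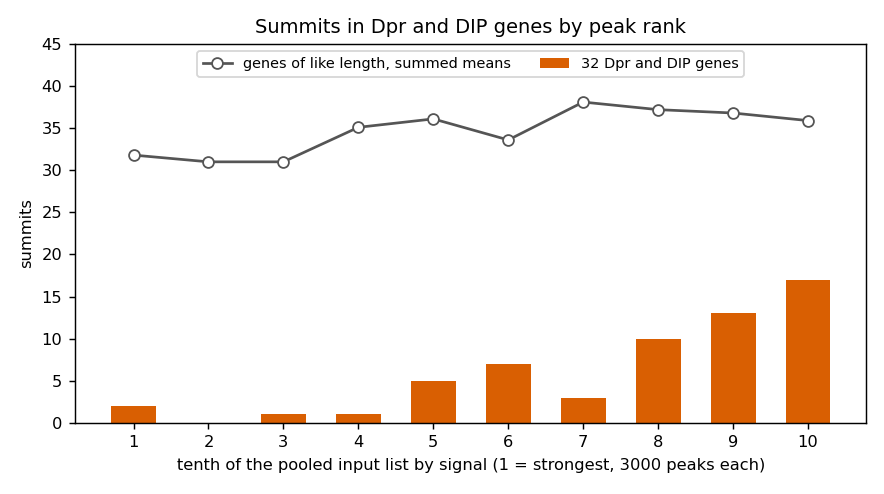
Summits in the 32 Dpr and DIP genes (orange bars) in each of 10 equal parts of the pooled input list by signal, from the strongest at 1 to the weakest at 10, and the sum of the means of genes of like length (rings). The bars go from 2 in the strongest part to 17 in the weakest, while the rings stay between 31 and 38.1.

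Input-list counts differed between replicates. Members held 57, 32 and 104 summits in replicates 1, 2 and 3 (64.3 ± 36.6, SD, n = 3), in 18, 13 and 26 genes. The shares over all coding genes were 33.7%, 31% and 33.8%. Against genes of like length the counts were 17.1%, 9.3% and 32.5%. Replicate 3 was the highest, and all but 3 of its summits in members lay below its strongest 6110 peaks. Its list was the shortest, and its median signal was 16.7 (18.5 and 25.0 in replicates 1 and 2). Whether this difference in the lists sets the counts was not tested. In all, 11 members had an entry in every replicate list, where the like-length shares sum to 21.9 members and 22.3% of all coding genes had one. No list, pooled included, had an entry in dpr14, dpr20, dpr21, dpr4, dpr7 and DIP-zeta. These are 6 members where the like-length shares sum to 2.9, and 54% of all coding genes had none.

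**Figure D4:**
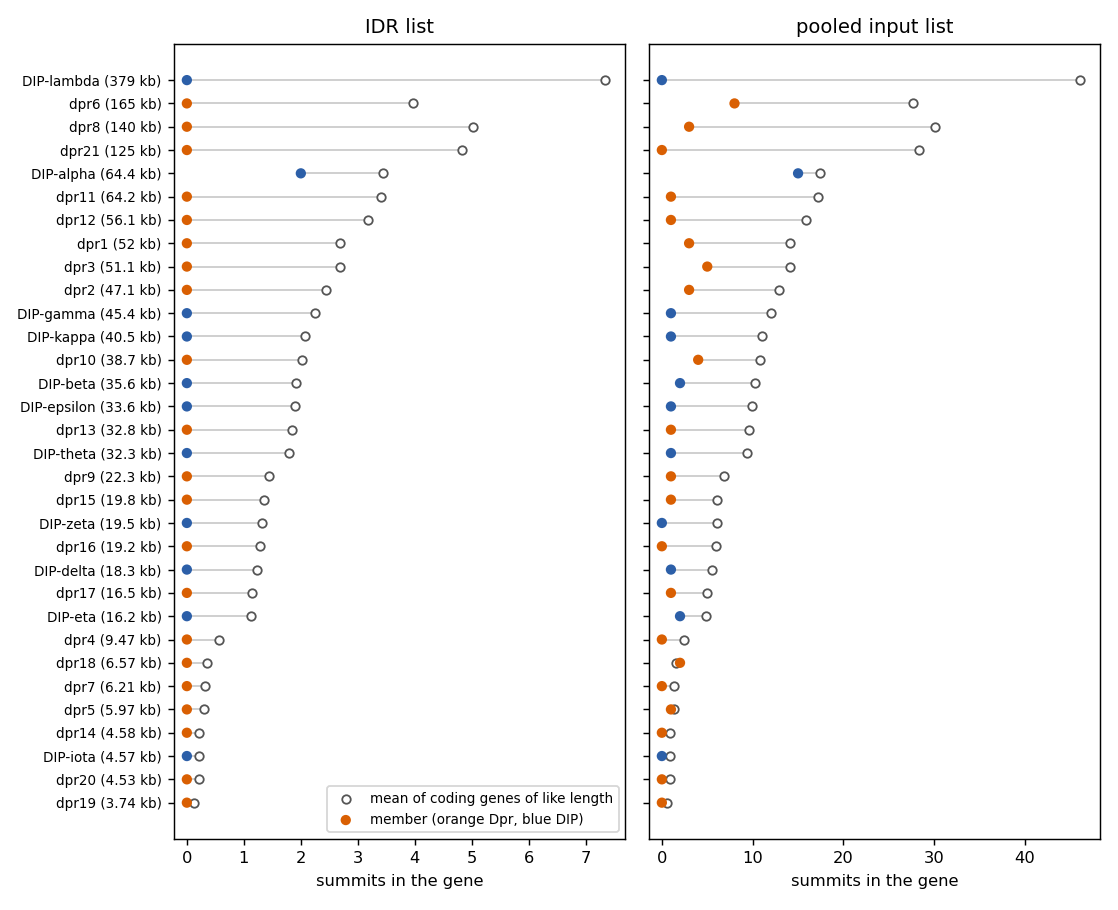
Summits in each of the 32 members (filled points, orange for Dpr and blue for DIP) and the mean of coding genes of like length (rings), for the IDR list on the left and the pooled input list on the right, with members ordered by length. Every member lies at or left of its ring except dpr18 in the pooled list, with 2 summits against 1.52.

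By length, 1 of the 9 members over 50 kb held an IDR summit, against 64.8% of other coding genes of that length. From 20 to 50 kb (9 members), none did, against 56%, and the mean of pooled entries was 1.67 against 9.33. From 5 to 20 kb (10 members), none did, against 33.6%, with 0.8 pooled entries against 2.56. Up to 5 kb (4 members), none did, against 4.31%. In these short genes, dpr14 and dpr20 had a promoter summit, 2 of the 4 (50%), against 14.1% of other coding genes up to 5 kb. The 4 members are 3.74 to 4.58 kb long, near the upper end of this range. The 4.31% and 14.1% of other coding genes are therefore low for genes of that length. Of the genes of like length to each, 23.2% to 25.9% had a promoter summit and 83.1% to 88.4% held no summit in the gene. The difference in promoter summits is thus small in number of genes, and the summit by dpr14 is nearer to spidey. In the 3 longer ranges no member had a promoter summit, against 33.1%, 38.2% and 42.3%, from the shorter to the longer.

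After DIP-alpha and dpr6, the highest pooled counts were 5 in dpr3 (51.1 kb), 4 in dpr10, and 3 in each of dpr1, dpr2 (47.1 kb) and dpr8. DIP-eta and DIP-theta, neighbours on 2L, held 2 and 1, and DIP-zeta none. In the 50 kb on each side of the members, with overlapping flanks merged and the members left out, 74 IDR summits lay in 2.87 Mb, or 0.258 per 10 kb, which is below the 0.456 of the arms and above the 0.0127 of the genes themselves. A summit lay in the flanks of 23 of 32 members, where the like-length shares sum to 28.1 members and 91.8% of all coding genes had one, with 11 summits around dpr20 and 8 around dpr14. The distance from a member to the nearest IDR summit had a median of 20204 bp.

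The median GC share of the gene was 41.7% in members and 42% for genes of like length, and the masked share was 17.8% and 18.4%. Exons made up a median of 14.4% of a member and 20.8% of a like-length gene. Restricting the comparison to genes of like length and like GC share or masked share gave differences of -2 and -1.99 summits per gene. Both of these comparisons were chosen after seeing the data. A single TSS is annotated for 24 of the 32 members, and with genes of like length and like TSS number the difference was -0.99.

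Low counts were shared with another receptor family. Of the 22 genes of the Beat and Side families, which encode another set of immunoglobulin receptors and ligands of axons, 4 held an IDR summit and none had one near a TSS, with 0.227 summits per gene against 2.35 at like length. These were beat-Ib with 2, and beat-IIIc, side-IV and side-V with 1 each. A list of 39 other recognition genes (with Dscam, teneurin, Robo, neuroligin and cadherin genes) was closer to the like-length value. In which cells these genes act was not measured here. On this list, 17 held an IDR summit, 14 had one near a TSS, and the mean was 1.87 against 2.14. Of its 73 summits, 22 were in kirre and 11 in Fas3, and the median over its genes was 0. Over all coding genes, 13.3% held an IDR summit and 19.2% had one near a TSS. With only these 2 lists as genes of like length, the difference for Dpr and DIP genes was -1.10. For DIP-lambda (379 kb), kirre (394 kb, 22 summits) was the only listed gene of like length. The value of -1.10 thus rests in large part on this 1 pairing, and it was not computed without DIP-lambda.

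The files hold no expression values, so the presence of neurons was not measured in them. Among genes that mark neurons, 1 of 9 (11.1%: elav, which also had a promoter summit) held an IDR summit and 2 of 9 (22.2%) had one near a TSS. Over all coding genes the shares were 13.3% and 19.2%. The neuron markers held 0.111 summits per gene against 1.2 at like length. Of 4 glial and 4 muscle marker genes, 1 each held a summit (Gs2 with 1, Mef2 with 5) and 2 each had one near a TSS.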

How the data were processed

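The signal and -log10 q-value of each peak were deposited by the authors, who made a list for each replicate and for the pool from alignments and 1 further file, and derived the IDR list from these 4, per the deposited file descriptions. The sources used here name no aligner, peak caller or cut-off for the IDR. Since 87.1% of IDR peaks tie at the top -log10 q-value, ranks come from the authors' signal. Summits were counted against the Ensembl release 115 annotation of dm6 (transposable elements left out), with Python 3.11.15, numpy 2.4.6 and pandas 2.3.3. Counting was tested on simulated data. The depth is unknown, and no intervals are given.

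The members and lists were chosen with earlier results of these data known, and no test was made, since there is 1 group. All members are accounted for; those described in full are the gene with IDR summits (no other had any to rank), those with a promoter summit, the known binding pairs and dpr1. Replicates share a strain, and each had 1 technical replicate. The dm3 lists were not used. Alternatives are given below.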

Additional observations from a re-analysis of the deposited data

How the results depend on the processing

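No paired analysis was possible because there is 1 group. The strongest pooled input peaks are the IDR peaks themselves, so that alternative gave the same values by construction. The alternatives without 1 replicate did not remake the IDR list, which still drew on all 3. They only left out entries of that list that were not matched in the top 6110 of the remaining replicates. The 4 summits in or by members ranked in the top 6110 of every replicate, so these alternatives could not lose them. The member with a summit in the gene (1 to 1), the summits (2 to 2), the density (0.0127 to 0.0127) and the promoter genes (2 to 2) were therefore unchanged by construction. With 1000 bp added at each end, 3 members held 4 summits (0.0253 per 10 kb, difference from like length -2.1). Over 1000 bp from every TSS, 1 summit was left (0.00633 per 10 kb, difference -1.41). Promoter genes were 1 in the upper part of the IDR peaks, 1 within 500 bp and 1 by nearest TSS, an alternative chosen after seeing the data, and 3 within 5000 bp, where 39.2% of all coding genes have a summit. The difference from genes of like length, -1.94, was below 0 in every alternative. Members held so few summits in each that the sign could hardly have differed, so only the size is compared here. It was -1.46 to -1.36 without 1 replicate, -1.23 for IDR peaks among the strongest of every replicate and -0.962 for the upper part, which all hold fewer peaks. It was -1.88 within 1.5 times the length, -1.83 for the 50 nearest genes, -1.57 on the same arm and -0.99 with TSS number. Alternatives chosen after seeing the data gave -1.83 without the 5 Mb near centromeres and chromosome 4 (28 members left, with dpr12 among them). Others chosen in this way gave -2 with GC share, -1.99 with masked share and -1.1 against other recognition genes. In the last of these, DIP-lambda was compared with kirre alone, so that value rests in large part on 1 pairing. The unknown depth limits what an absent peak means.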

Other observations

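The promoters of Dpr and DIP genes were richer in G and C than those of genes of like length. In the 300 bp windows at annotated TSSs, the mean GC share of a member ranged from 26.7% to 59%, with a median of 49.7%, and 24 of 32 members were above the mean of their like-length genes, whose median was 44.5%. The median over single windows was 48.3% at the 41 member TSSs and 39.3% at the 19607 of all coding genes. Over the whole gene the order was the other way, with 21 of 32 members below their like-length mean. These are descriptions with no test. Of the 6 motifs other than GAGAG, the E-box CACGTG was in 5 of 41 member windows, which is 12.2%, against 4.01% of all windows. The other E-box searched was in 7 member windows (17.1%, against 17.9% of all). The nuclear receptor element was in 3 (7.32%, against 5.68%), the repeat CACACACA in 2 (4.88%, against 5.73%), the DREF element core in 2 (4.88%, against 7.98%) and the Zelda motif in 0 (against 1.7%). These counts are small, and the shares over all windows were not matched to the members for gene length or GC share.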
